A study of Mus musculus with 3 samples.

Results

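The secretory granule and prohormone genes considered here are 9 listed genes: the granins Scg2, Scg3, Scg5, Chga and Chgb, the prohormone convertases Pcsk1 and Pcsk2, the carboxypeptidase Cpe and the neuroendocrine marker Uchl1. The rule took every probe set that carries 1 of these symbols, and it found 1 probe set for each of 8 genes among 19938 genes on the array. Pcsk2 is not analysed here. All 8 lay above the median intensity of every array, so none was lost to the filter on dim probe sets.

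Expression was measured with Affymetrix MoGene-1_0-st-v1 arrays in soft tissue sarcoma cells of mice with an inducible EWS/ATF1 transgene, on a mixed C57/BL6, 129 and ICR background. EWS/ATF1 fuses the start of EWSR1, which binds RNA, to ATF1, a relative of CREB, and occurs as the fusion of human clear cell sarcoma. By their labels, the array called control is of cultured tumor cells at 0 microg/ml doxycycline, the array called high doxycycline is of cultured cells 24 h after 0.2 microg/ml, and the array called tumor is of a tumor resected from a mouse given doxycycline for 3 months. Marker genes go against the first and the last of these labels: the macrophage gene C1qb had an intensity of 5449 on the array labelled control, 104 on high doxycycline and 89.2 on tumor, the endothelial gene Cdh5 had 2098, 135 and 106, and the muscle gene Ckm had 4795, 238 and 210. Tissue genes were thus bright on the array labelled as a culture and dim on the one labelled as a resected tumor. Whether these 2 labels were exchanged was not tested. If they were, each comparison with control would be one with a resected tumor. Tumor against high doxycycline would then set a culture at 0 microg/ml doxycycline against one at 0.2 microg/ml. Control, high doxycycline and tumor are used below as names of arrays only. The labels give both culture arrays the same number and the tumor array another, and no source used here gives the promoter of the transgene or the age of the mouse. Each group has 1 array, so no difference could be tested or checked against replicates, and precision is limited by having 3 arrays.

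Endocrine cells and neurons store peptide hormones in dense-core granules. Granins are acidic proteins that aggregate in the Golgi and help to load these granules, convertases cut prohormones at pairs of basic residues, and carboxypeptidase E then trims the basic residues that remain. Several genes of this pathway are known CREB targets through a cAMP response element (CRE), the motif that ATF1 also binds, and clear cell sarcoma arises in soft tissue rather than in an endocrine organ.

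The promoters are shown because this motif stands in several of them. In the RefSeq promoter table (GRCm38.p6, 250 bases before to 50 after the annotated start), 8 of the 9 genes, all but Cpe, had an entry. Capitals mark the CRE palindrome TGACGTCA and any other copy of its 5-base core TGACG, searched on both strands. Every palindrome also contains the core on each strand. The promoter of Scg2 is printed whole, and those of Chgb, Pcsk1, Chga and Scg3 as 100-base windows around the motif, all from 5′ to 3′ on the strand of the gene.
Scg2 (chr1:79439977-79440276, minus strand): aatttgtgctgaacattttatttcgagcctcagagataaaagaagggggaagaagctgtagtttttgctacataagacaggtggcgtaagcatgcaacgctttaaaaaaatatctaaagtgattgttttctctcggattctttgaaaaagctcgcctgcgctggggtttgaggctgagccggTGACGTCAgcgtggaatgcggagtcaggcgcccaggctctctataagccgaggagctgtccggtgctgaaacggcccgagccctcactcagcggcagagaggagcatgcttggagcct
Chgb (chr2:132781524-132781623, plus strand): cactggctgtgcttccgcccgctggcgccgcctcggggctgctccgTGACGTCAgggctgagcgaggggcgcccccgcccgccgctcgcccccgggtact
Pcsk1 (chr13:75089733-75089832, plus strand): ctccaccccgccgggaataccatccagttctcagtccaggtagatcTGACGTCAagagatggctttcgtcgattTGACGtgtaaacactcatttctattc
Chga (chr12:102554849-102554948, plus strand): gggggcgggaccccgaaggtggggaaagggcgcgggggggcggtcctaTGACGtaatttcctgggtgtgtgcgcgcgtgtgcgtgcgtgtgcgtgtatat
Scg3 (chr9:75684035-75684134, minus strand): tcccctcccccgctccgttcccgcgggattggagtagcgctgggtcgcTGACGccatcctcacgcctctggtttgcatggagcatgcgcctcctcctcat

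The palindrome TGACGTCA occurred in 3 of the 8 member promoters, those of Scg2, Chgb and Pcsk1, against 588 of 32851 promoters in the table (1.79%). Its first base lay 68 bases before the annotated start in Scg2, 72 in Chgb and 78 in Pcsk1. Pcsk1 held a further copy of the core, 50 bases before the start. The core TGACG occurred in 7 of the 8, all but Uchl1, against 20.8% of all promoters. In Chga it lay 44 bases and in Scg3 30 bases before the start, and Scg5 held 3 copies. The AP-1 motif TGANTCA, where N is any base, was in 0 of the 8 windows against 7.81% of all promoters, and the TATA box letters TATAAA were in Chga alone, against 13.6%. In Chga these letters began at base 6 after the annotated start, not before it. These are matches of letters and are not shown to be bound.

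**Figure D1:**
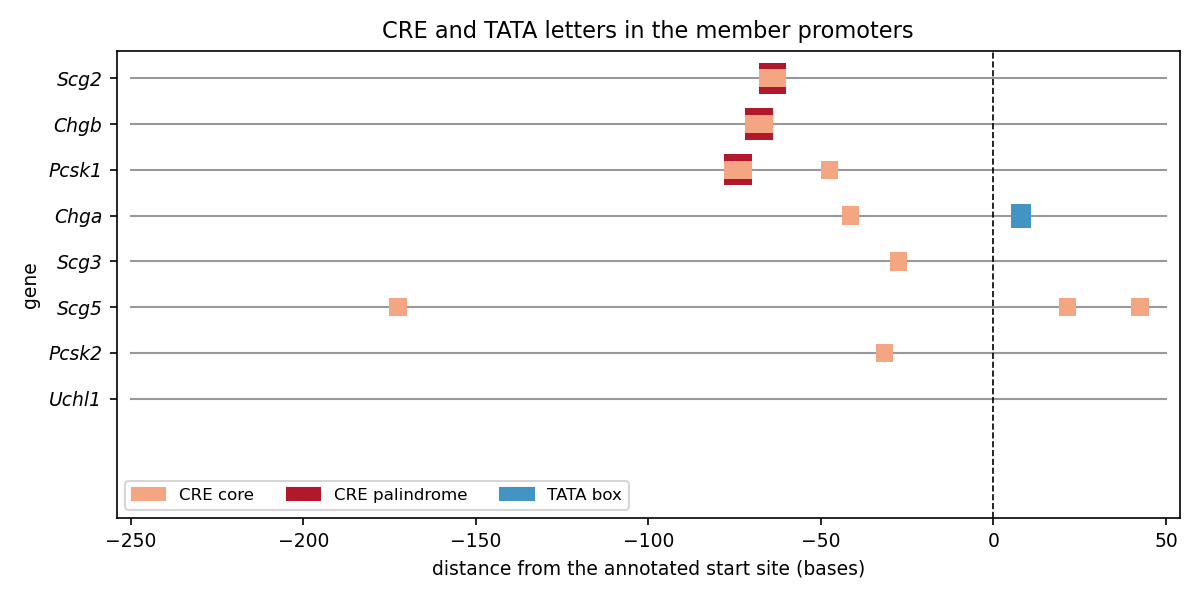
Matches to the CRE palindrome, its core and the TATA box letters in the promoter windows of 8 member genes, drawn at their distance in bases from the annotated start site (dashed line). The 3 palindromes of Scg2, Chgb and Pcsk1 lie within 10 bases of each other in distance, between 68 and 78 bases before the start, and Uchl1 has no match.

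Of the 8 genes, 5 (Scg2, Cpe, Uchl1, Pcsk1 and Chga) exceeded their control value by at least 2-fold on high doxycycline, and the same 5 did so on tumor. None was dimmer by that margin. A gene counts as bright in a comparison where the array with its higher value places it over the midpoint (median) of that array's probe sets. The background over 11934 bright genes was 17.5% brighter and 8.46% dimmer by 2-fold for high doxycycline against control, and over 12011 bright genes 18.6% and 10.2% for tumor against control. The median log2 difference of the 8 genes was 1.60 for high doxycycline against control and 1.79 for tumor against control, where all bright genes had a median of 0.08 in each. Both comparisons share the array labelled control, so the second is not separate evidence. The members were chosen with earlier results of these data known, so their contrast with the background is not independent of that choice. Differences are between log2(intensity + 1) values, which understates changes of dim genes. In bulk RNA a lower signal can come from fewer cells that express a gene or from less RNA per cell, and these cannot be told apart.

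The sums over the tissue lists show the same, though single genes depart from it. The macrophage gene Cd14 had 650 on control, 914 on high doxycycline and 158 on the tumor array. The endothelial gene Tek lay below the control median, with 240, 162 and 178 in the same order. Of 10 macrophage genes, control had 10 over its median, high doxycycline 2 and tumor 1, with summed intensities of 24308, 2285 and 1252. For 8 endothelial genes the sums were 9016, 1171 and 1072, for 8 skeletal muscle genes 26973, 1824 and 1406, and for 8 fibroblast and matrix genes 51371, 1845 and 2415. Over the median were 7, 1 and 1 of the endothelial genes and 8, 4 and 3 of the muscle genes. Fibroblast and matrix genes mostly stayed over it, at 8, 6 and 7. None of these markers was listed at 0 on any array. Their part in the differences of the granule genes was not tested. The array medians were 7.97, 7.83 and 7.79 on the log2 scale in the order control, high doxycycline and tumor. Shifting the arrays to a common median adds 0.14 to every log2 difference of high doxycycline against control and 0.19 to that of tumor against control. The remaining internal check is how far probe sets of 1 gene disagree. These are read on the same arrays, so their gap holds no variation between cultures, animals or arrays. Over 664 genes the median gap in log2 difference was 0.37 for high doxycycline against control. It was at least 1 in 19.9% of these genes. For tumor against control the gap reached 1 in 21.0% of 671 genes. Each granule gene has a single probe set, so this check could not be made on the members themselves.

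**Figure D2:**
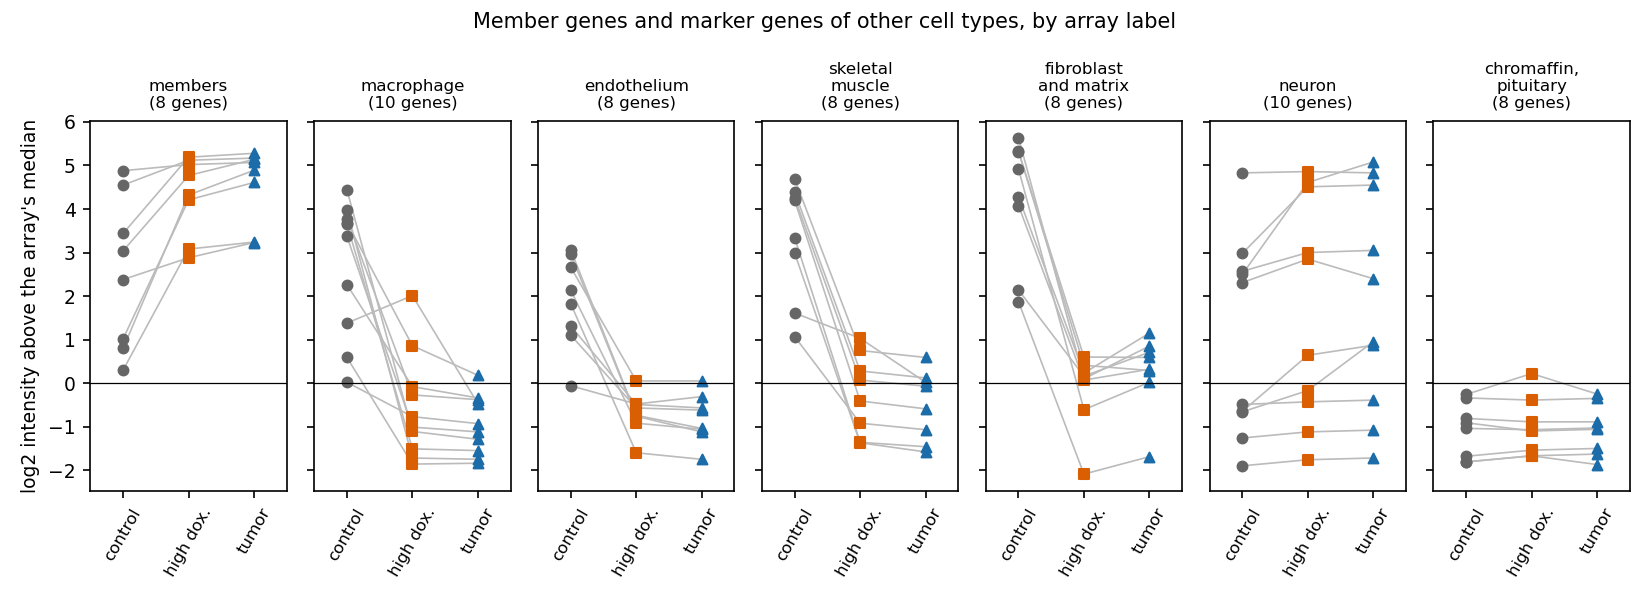
Log2 intensity above the median of the same array (vertical axis) for the 8 member genes and for 6 lists of marker genes, by array label; each point is a gene and grey lines join the same gene. All 8 members stay above the median on every array, while most macrophage, endothelial and muscle markers fall from above the median on control to near or below it, and chromaffin and pituitary markers stay near or below it on all arrays.

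Scg2 encodes secretogranin II, the precursor of the neuropeptide secretoneurin. Its intensity was 436 on control, 4544 on high doxycycline and 6559 on the tumor array. It was thus the member with the largest difference, 10.4-fold on high doxycycline (log2 3.38) and 15.0-fold on tumor (log2 3.91). Among the probe sets of each array it moved from percentile 63.3 on control to 95.8 on high doxycycline and 97.8 on tumor. In both comparisons with control it lay above at least 99.8% of bright genes.

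Chga encodes chromogranin A, the classical serum marker of neuroendocrine tumors. Its intensities were 2060 on control, 6216 on high doxycycline and 7807 on the tumor array. This is 3.02-fold and 3.79-fold above control. Chga was well above the median on the control array too, at percentile 91.2.

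Chgb, the gene of chromogranin B, showed no difference in the deposited values, and whether its RNA was unchanged cannot be told from them. Its intensity was 7406 on all 3 arrays, equal to the last deposited digit. Exactly equal values on all 3 arrays were held by 15.0% of all probe sets and by 4.48% of the probe sets above percentile 75 of mean brightness, and no source used here says why. Chgb carries the same palindrome as Scg2 and Pcsk1 at nearly the same distance from its start. Because the value itself is constant, the sign of its difference follows the scaling: against control on high doxycycline it was 0.14 with a common median and -0.13 with quantile normalization.

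Scg3 encodes secretogranin III, which binds chromogranin A and tethers it to granule membranes. Its intensities were 5895 on control, 7935 on high doxycycline and 7935 on the tumor array, again equal on the last 2 arrays, and 1.35-fold above control. Scg5 encodes 7B2, the chaperone that the convertase of Pcsk2 needs to mature. It had 1305, 1678 and 2064 in the same order, 1.29-fold and 1.58-fold above control. Neither passed 2-fold, and the log2 difference of 0.36 for Scg5 on high doxycycline was 0.06 under quantile normalization. Of the 5 granins, then, Scg2 and Chga passed 2-fold, Scg3 and Scg5 lay within 1.58-fold of control, and Chgb was constant as deposited.

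Pcsk1 encodes prohormone convertase 1/3, which makes the first cuts in many prohormones. Its intensities were 2720 on control, 8286 on high doxycycline and 8593 on the tumor array. It was 3.05-fold and 3.16-fold brighter than on control and nearly level between the latter arrays. Cpe encodes carboxypeptidase E, which acts directly after the convertases. It had 508 on control, 4222 on high doxycycline and 5373 on the tumor array, 8.30-fold and 10.6-fold above control. Cpe moved from percentile 67.0 on the control array to 95.3 and 96.9.

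Uchl1 encodes a ubiquitin hydrolase abundant in neurons and endocrine cells, known as PGP9.5 in pathology. It is no granule protein and stands here as a cell type marker. Its intensities were 307 on control, 1929 on high doxycycline and 2086 on the tumor array. On the control array it lay just above the middle of all probe sets, at percentile 55.0, and on the other arrays at 88.0 and 89.3. The difference was 6.26-fold on high doxycycline and 6.77-fold on tumor.

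**Figure D3:**
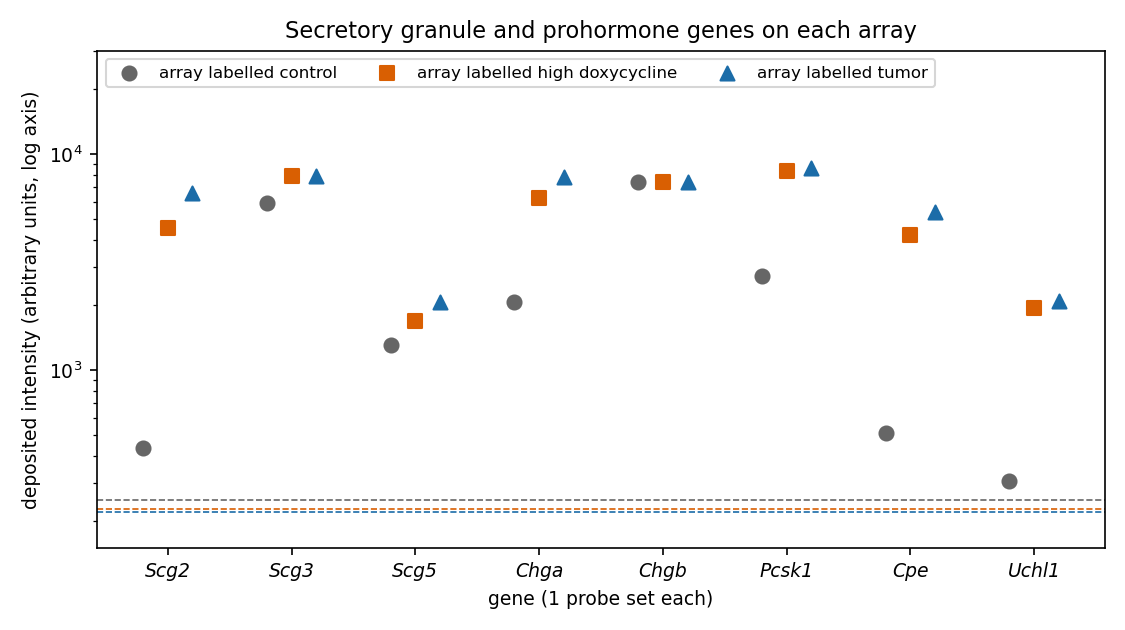
Deposited intensity (log axis, arbitrary units) of 8 member genes, 1 probe set each, on the arrays labelled control (circles), high doxycycline (squares) and tumor (triangles); dashed lines are the array medians and there are no error bars because each group has 1 array. Scg2, Cpe and Uchl1 lie between 307 and 508 on control and at 1929 or more elsewhere, while Chgb stays at 7406.

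Ordered by their log2 difference on high doxycycline against control, the genes ran Scg2 (3.38), Cpe (3.05), Uchl1 (2.65), Pcsk1 (1.61), Chga (1.59), Scg3 (0.43), Scg5 (0.36) and Chgb (0.00). Neighbours closer than the median probe set gap of 0.37 were Scg2 and Cpe, Pcsk1 and Chga, Scg3 and Scg5, and Scg5 and Chgb. Their order is not resolved. That of the others is not shown to be either, since the gap was at least 1 in 19.9% of genes with several probe sets. On tumor against control the order was Scg2 (3.91), Cpe (3.40), Uchl1 (2.76), Chga (1.92), Pcsk1 (1.66), Scg5 (0.66), Scg3 (0.43) and Chgb (0.00). There Chga and Pcsk1, and Scg5 and Scg3, were closer than the median gap of 0.38. The 5 genes past 2-fold and the 3 short of it thus formed the same sets in both, which share their control.

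**Figure D4:**
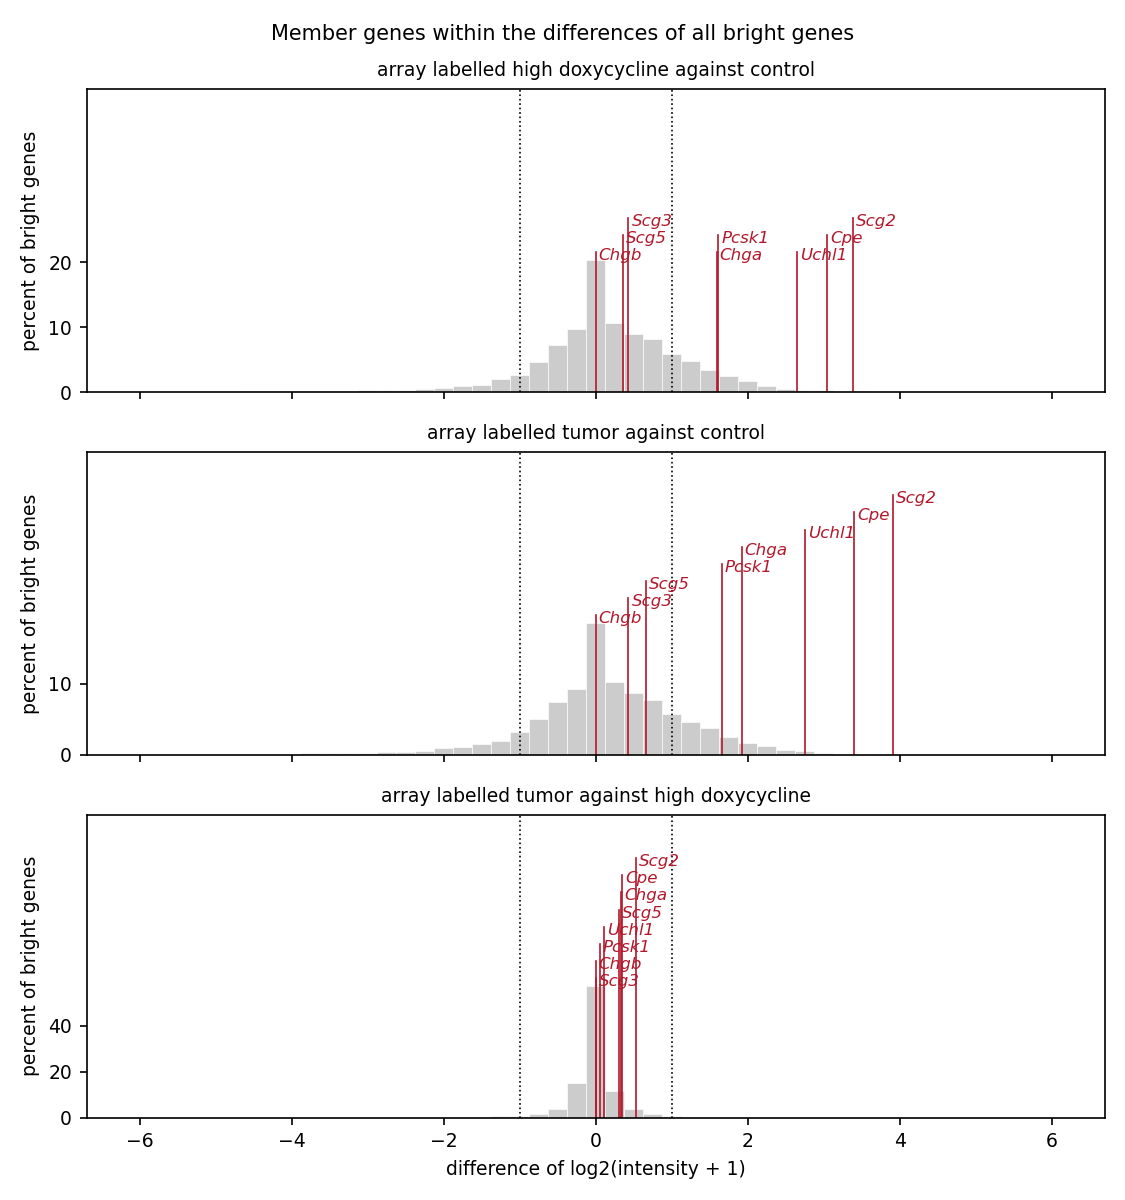
Difference of log2(intensity + 1) of the 8 member genes (red lines, heights staggered for the labels) within the distribution over all bright genes (grey bars, percent of genes per bin of 0.25) in the 3 comparisons; dotted lines mark 2-fold. Scg2, Cpe, Uchl1, Pcsk1 and Chga lie right of 2-fold in both comparisons with control, and all 8 lie between 0 and 0.53 for tumor against high doxycycline.

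The comparison of the arrays labelled tumor and high doxycycline leaves out the control array, and on both arrays the summed tissue markers were low, as given above. If the labels control and tumor were exchanged, which was not tested, values brighter on tumor would be brighter in culture without doxycycline. No member differed by 2-fold. The background was 1.60% brighter and 1.94% dimmer of 11212 bright genes. Scg2 was 1.44-fold brighter on tumor (log2 0.53), Cpe 1.27-fold, Chga 1.26-fold, Scg5 1.23-fold, Uchl1 1.08-fold and Pcsk1 1.04-fold. Scg3 and Chgb were exactly equal, as were 26.3% of bright genes in this comparison. Of the 8 genes 6 were thus somewhat brighter on tumor and 0 dimmer. Of all bright genes, 40.6% were dimmer on tumor by any margin, 26.3% were equal and the rest were brighter. The median log2 difference of the 8 genes was 0.21 against 0.00 over all bright genes. Between these arrays the gap between probe sets of 1 gene had a median of 0.0554, with a 90th percentile of 0.32. The differences of Scg2 (0.53), Cpe (0.35) and Chga (0.33) are above that percentile, and those of Scg5 (0.30), Uchl1 (0.11) and Pcsk1 (0.05) are below it. Scg5 ranged from 0.29 to 0.34 over the processing settings, so its side of that percentile is not resolved. Probe sets with equal values on both arrays were kept in these gaps, which can make them smaller. The gaps hold no variation between arrays, so passing that percentile does not show a difference between groups.

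The further genes of the pathway lists did not follow the 5 members as a block, and the lists differed among themselves. At least 2-fold brighter on high doxycycline than on control were 6 of 17 bright granule membrane and priming genes. The same held for 4 of 10 bright peptide-processing enzymes, 3 of 3 ubiquitin hydrolases and 2 of 7 transcription factors. It held for 0 of 17 bright peptide precursors, 0 of 6 convertases and 0 of 2 granins. The pooled counts that follow include all of these lists. Over 112 further genes of the pathway lists, 106 were measured and 62 were bright against control. Of these, 15 were at least 2-fold brighter and 8 dimmer on high doxycycline than on control, or 24.2% brighter against a background of 17.5% brighter and 8.46% dimmer. On tumor 16 were brighter and 10 dimmer, or 25.8% brighter against a background of 18.6% brighter and 10.2% dimmer. Their median log2 difference was 0.00 on high doxycycline and -0.14 on tumor, against 0.08 over all bright genes in each; with the arrays at a common median they were 0.14 and 0.04, against 0.22 and 0.26.

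Among the further granins, Pcsk1n, whose product proSAAS inhibits the convertase of Pcsk1, had 733 on control, 394 on high doxycycline and 337 on the tumor array, 1.86-fold and 2.17-fold dimmer than on control, where Pcsk1 was brighter. Vgf, a granin-like neuropeptide precursor, had 568, 568 and 329. Of all bright genes, 17.5% were at least 2-fold brighter and 8.46% dimmer on high doxycycline than on control, and 18.6% and 10.2% on tumor. Of 6 further convertase genes 1 passed 2-fold. This was Pcsk5, a convertase of widespread tissues, with 524 on control, 171 on high doxycycline and 164 on the tumor array (3.06-fold and 3.18-fold dimmer). Furin, the convertase of the constitutive pathway, had 2382, 2024 and 2024.

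Of 10 bright peptide-processing enzymes besides Cpe, 4 were at least 2-fold brighter on both arrays than on control and 1 was dimmer. The background for this list and for the ubiquitin hydrolases below was 17.5% brighter and 8.46% dimmer on high doxycycline, and 18.6% and 10.2% on tumor. Qpct, the glutaminyl cyclase that caps the amino terminus of peptides, had 3619 on control, 8841 on high doxycycline and 8342 on the tumor array. Cpm, a membrane carboxypeptidase, had 2085, 6200 and 4677. The aminopeptidase gene Rnpep was 2.94-fold and 3.68-fold brighter and the cathepsin L gene Ctsl 2.03-fold and 2.34-fold. The dimmer gene was Cpz, a carboxypeptidase of the extracellular matrix (2.29-fold in both). Pam, which amidates the carboxy terminus of peptides, had 4318, 4318 and 4312. The other ubiquitin carboxy-terminal hydrolases were brighter on high doxycycline and on tumor than on control as well, 3 of 3: Uchl3 by 3.38-fold and 2.70-fold, Bap1 by 2.31-fold and 2.32-fold, and Uchl5 by 2.22-fold in each.

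In the list of granule membrane and priming genes, 17 were bright. On high doxycycline against control 6 of them passed 2-fold upward and 1 downward, against 17.5% and 8.46% of all bright genes. On tumor 6 and 2 did so, against 18.6% and 10.2%. The largest was Cadps, which primes dense-core granules for release, with 200 on control, 1156 on high doxycycline and 1240 on the tumor array (5.75-fold and 6.17-fold). Rab3b, a small GTPase of secretory vesicles, had 440, 1401 and 2375. Rab3a, another of these GTPases, was 2.10-fold and 2.57-fold brighter, and the granule synaptotagmin gene Syt4 2.31-fold and 2.52-fold. For Rab2a the brighter of 2 probe sets gave 3.84-fold on high doxycycline, a log2 difference of 1.94 that was 1.51 as the mean of both. Cyb561, which supplies electrons inside the granule, was dimmer by 2.03-fold and 2.51-fold. Ptprn, the granule membrane protein IA-2, had 6016, 7188 and 5523.

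The list of prohormone and neuropeptide genes included none brighter by 2-fold. Scg2, itself a peptide precursor as given above, is counted with the granins and not in this list. Of 17 bright prohormone and neuropeptide genes, 0 were at least 2-fold brighter and 5 were dimmer on high doxycycline than on control, against 17.5% and 8.46% of all bright genes, and 0 and 5 on tumor, against 18.6% and 10.2%. The other 12 did not pass 2-fold in either comparison. The medians of the 17 were -0.38 and -0.48. Pnoc, the precursor of nociceptin, had 3784 on control, 181 on high doxycycline and 167 on the tumor array, 20.8-fold and 22.5-fold dimmer. Gal, the precursor of galanin, had 2541, 230 and 241. Penk, the precursor of the enkephalins, had 956, 104 and 92.1. Tac1, the precursor of substance P, had 707, 259 and 135, and Adm, the precursor of adrenomedullin, had 1055, 327 and 478. On high doxycycline and tumor Penk and Pnoc lay below the array medians. A few precursors were bright on all arrays: Cartpt, the precursor of the CART peptide, had 9009, 11182 and 7931, Npy, the precursor of neuropeptide Y, 1414, 2049 and 1424, and Nppc, the precursor of C-type natriuretic peptide, 2758, 2467 and 4695. The macrophage, muscle and matrix lists given above likewise had higher sums on control, and their part in these precursor differences was not tested.

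**Figure D5:**
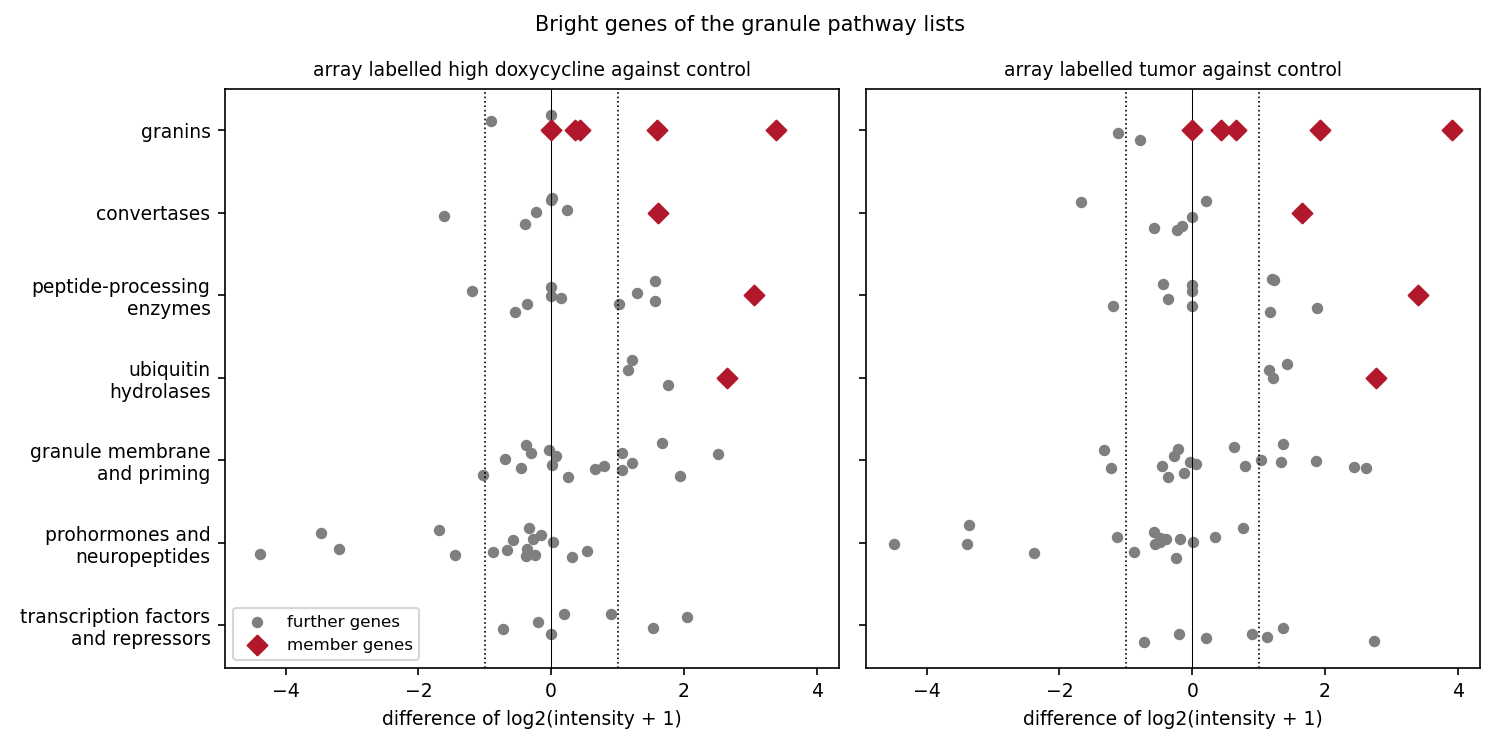
Difference of log2(intensity + 1) for the bright further genes of 7 lists (grey points) and for the member genes (red diamonds), for high doxycycline against control and for tumor against control; dotted lines mark 2-fold and vertical scatter within a list carries no meaning. Prohormone and neuropeptide genes lie mostly left of 0, down to -4.38 and -4.49 for Pnoc, while Scg2, Cpe and Uchl1 lie farthest right within their lists.

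Defining genes of chromaffin and pituitary cells were mostly dim, while neuronal markers were mixed. None of the 6 catecholamine and amine enzyme genes was bright in any comparison. Th, the tyrosine hydroxylase gene, had 197 on control, 173 on high doxycycline and 173 on the tumor array, and Dbh, the dopamine beta-hydroxylase gene, had 121, 107 and 107. Of 8 chromaffin and pituitary markers, control had 0 over its median, high doxycycline 1 and tumor 0, with summed intensities of 1019, 989 and 895. Of 10 neuronal markers, 5, 6 and 7 were over the median in that order, with sums of 13952, 21683 and 23111. Snap25, a SNARE of regulated secretion, had 1421, 5542 and 7476. The growth cone gene Stmn2 had 1976, 5192 and 5186, and the synaptic vesicle gene Syp 7158, 6591 and 6294. The neuronal tubulin gene Tubb3 had 1240, 1641 and 1163 and the RNA-binding protein gene Elavl3 1492, 1825 and 1825. Dim on all arrays were Nefm, a neurofilament gene, at 66.1 on each, and Rbfox3, the NeuN gene, at 178, 168 and 168. Also dim was the RNA-binding protein gene Elavl4, at 103 on each. Another neurofilament gene, Nefl, had 159, 355 and 404 (2.23-fold and 2.53-fold brighter than on control). The synaptotagmin gene Syt1 had 158, 201 and 426. Among transcription factors of neuroendocrine cells, Neurod1 had 149, 616 and 1002 (4.11-fold and 6.67-fold brighter than on control) and Isl1 163, 473 and 424. Insm1 was dim, at 225, 193 and 183. Rest, the repressor of neuronal genes, had 916, 555 and 552, 1.65-fold and 1.66-fold dimmer. Hes1, a Notch target, had 351, 351 and 764 and was the 1 further list gene that passed 2-fold between tumor and high doxycycline.

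The genes nearest to each member in pattern were found by the distance between gene-centred log2 values over the 3 arrays, among 11591 genes. For Scg2 they were Uprt (183 on control, 1745 on high doxycycline and 2634 on the tumor array), Stc1, the gene of the secreted hormone stanniocalcin 1 (472, 5222 and 7944), and Hint3. For Cpe they were Smim10l1, Emc2 and Gtpbp8, for Uchl1 Sike1, Peg3 and Nxph4, for Chga Trmt2b, Tet1 and Cpped1, and for Pcsk1 Spry3, Ttll1 and Elp4. The distances ran from 0.0062 (Sike1) to 0.14 (Hint3) on the log2 scale. Over 3 arrays this likeness rests on 2 independent differences per gene.

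Over all bright genes with a promoter entry, those with the CRE palindrome were set beside those without it. On high doxycycline against control, 21.4% of 345 genes with it and 17.7% of 9195 without it were at least 2-fold brighter, and 2.61% and 7.65% were dimmer. On tumor against control, 24.4% of 344 and 18.6% of 9262 were brighter, and 4.07% and 9.18% were dimmer. Of the 3 measured members with the palindrome, Scg2 and Pcsk1 were at least 2-fold brighter and Chgb was constant as deposited. Of the measured members with the core alone, Chga was at least 2-fold brighter and Scg3 and Scg5 were not, and Uchl1, with no core, was. This comparison was chosen after the values had been seen and carries no test.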

How the data were processed

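Per the labels, total RNA from a column kit was biotinylated and hybridised to 3 Affymetrix arrays, 1 per group, placed in its group by title. The authors deposited linear intensities, 1 per probe set. Their background correction, summarisation and normalization are not given in the sources used here. Of 28856 probe sets, 21789 have 1 gene symbol in the platform annotation and form 19938 genes; 1621 with several and 5446 with none were left out. A gene with several probe sets took that with the highest mean. No array coordinates are given, since the files name no build.

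Values were taken as log2(intensity + 1) and called at 2-fold where the brighter array exceeded its median. Analysis used Python 3.11.15, pandas 2.3.3 and numpy 2.4.6, and was tested on simulated data. Alternatives were a common median, quantile normalization, no filter, percentile 75, the mean of all probe sets, single probe sets, and pseudocounts of 16 and 64. Members and lists were chosen with earlier results of these data known. Named genes are the members, up to 6 further genes per list past 2-fold by range, and the 3 nearest patterns per member that ranged over at least 1 on the log2 scale. Vgf, Furin, Pam, Ptprn, Cartpt, Npy, Nppc, Th, Dbh, Insm1 and Rest were chosen after their values were seen. So were the markers Snap25, Stmn2, Syp, Tubb3, Elavl3, Elavl4, Nefm, Nefl, Syt1, Rbfox3, C1qb, Cd14, Cdh5, Tek and Ckm. Protein sequences are not used here.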

Additional observations from a re-analysis of the deposited data

How the results depend on the processing

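The 5 members above 2-fold against control stayed above it, and in the same direction, under all 8 alternatives in both comparisons. No member passed 2-fold between tumor and high doxycycline under any of them. Not all alternatives could change a member. Each has 1 probe set, so the mean of all probe sets and single probe sets return the same value. The filter settings change which genes are tested, not a difference. Only the scaling and pseudocount settings therefore bear on the members. The log2 difference on high doxycycline against control ranged over these settings from 3.20 to 3.52 for Scg2, 2.85 to 3.19 for Cpe, 2.42 to 2.79 for Uchl1, 1.37 to 1.75 for Pcsk1 and 1.32 to 1.73 for Chga. Chgb, constant as deposited, ranged from -0.13 to 0.14. The further list genes at least 2-fold dimmer than on control numbered 4 in place of 8 on high doxycycline and 5 in place of 10 on tumor above percentile 75 of brightness, where fewer genes were tested. Between tumor and high doxycycline, 1 further gene was brighter, against 2 under quantile normalization, 0 above percentile 75 and 0 with a pseudocount of 64. No paired analysis was possible because each group holds 1 array, and for the same reason no array could be left out within a group.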
